A study of Mus musculus with 2 samples.

Results

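The genes described here encode negative feedback on MAP kinase signalling: the dual-specificity phosphatases Dusp1, Dusp2, Dusp4, Dusp5, Dusp6 and Dusp10, the Sprouty proteins Spry1 and Spry2, and the Sprouty-related proteins Spred1 and Spred2. They were chosen by name, and probes were assigned to them through the transcript accession in the scanner files. Of the 10 listed genes 9 had a named probe, among 18434 named genes on the array. They were read by 11 probes, each printed once, with no saturated or outlier spot. Dusp5 had no named probe, so its expression is not analysed here. Expression was measured on 2 one-colour arrays, 1 of Menin WT and 1 of Menin KO cells. Menin, the product of Men1, is a chromatin-associated protein, and the series title links it with the repressor Bach2 in senescence and cytokine balance of CD4 T cells. Both groups were naive CD4+CD62L+ T cells from the spleen of female C57BL/6J mice. They were activated for 2 days with immobilised antibody against TCR-β (3 µg/ml) and antibody to CD28 (1 µg/ml) together with IL-2 (2.5 ng/ml). They were then moved off the antibodies and grown in IL-2 at the same concentration for 3 more days. How Men1 was deleted, the age of the mice and whether mice were pooled are not given in the sources used here.

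Engagement of the T cell receptor activates Ras, which switches on the kinase chain of Raf, MEK and ERK, while stress and costimulation feed the parallel JNK and p38 kinases. Dual-specificity phosphatases switch these kinases off by removing phosphate from both the threonine and the tyrosine of the activation loop, and many of them are transcribed in response to the pathway they shut down. Sprouty and Spred proteins act further upstream, at the level of Ras and Raf, and are likewise induced by the signal they dampen.

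The genes at least 2-fold lower on the Menin KO array were Dusp1, Dusp10 and Spry1. The 250 bases before their RefSeq start sites (GRCm38.p6) are shown 5′ to 3′ so that the promoters of these 3 genes can be compared. Capitals mark the cAMP response element, and the sequences without capitals held none of the searched motifs.
Dusp1, chr17:26508473-26508722, minus strand: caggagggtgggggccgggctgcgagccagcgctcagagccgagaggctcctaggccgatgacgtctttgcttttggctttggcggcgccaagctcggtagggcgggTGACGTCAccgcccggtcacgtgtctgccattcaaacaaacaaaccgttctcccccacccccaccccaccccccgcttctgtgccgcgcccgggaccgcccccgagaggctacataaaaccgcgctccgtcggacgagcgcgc
Dusp10, chr1:184034131-184034380, plus strand: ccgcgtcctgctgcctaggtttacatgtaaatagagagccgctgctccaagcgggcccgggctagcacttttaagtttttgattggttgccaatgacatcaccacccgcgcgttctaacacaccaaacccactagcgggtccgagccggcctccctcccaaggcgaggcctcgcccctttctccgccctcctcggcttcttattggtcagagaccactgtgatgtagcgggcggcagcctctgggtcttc
Spry1, chr3:37639697-37639946, plus strand: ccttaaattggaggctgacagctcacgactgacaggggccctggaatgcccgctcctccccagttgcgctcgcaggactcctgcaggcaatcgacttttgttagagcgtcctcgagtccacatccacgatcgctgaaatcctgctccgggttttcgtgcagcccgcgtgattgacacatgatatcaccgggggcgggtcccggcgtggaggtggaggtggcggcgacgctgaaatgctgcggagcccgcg

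The search covered both strands of the 300 bases from 250 before to 50 after the start, for TGACGTCA (the cAMP response element), TGANTCA (AP-1) and the Bach and Maf recognition element (TGC directly followed by TGANTCA, so that every match is also an AP-1 match). Of the 10 genes 9 were matched in the RefSeq promoter table, all but Dusp4, so these 9 include Dusp5. The full cAMP response element was found in 1 of the 9 windows, that of Dusp1, at positions -143 to -136 from the start, and in 1.79% of all 32851 windows. None of the 9 held TGANTCA, which 7.81% of all windows hold, or the Bach and Maf element, which 0.423% hold. A match describes letters only, and its absence says nothing about factor binding. G and C made up 56% to 70.8% of the 250 bases in the 9 promoters, all above the median of 52.4% over all windows.

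Men1 read 1081 in WT and 459 in KO (2.38-fold lower), and that of Bach2 was 4643 and 604 (7.76-fold lower); whether the Men1 probe lies in the deleted part is not known here. The share of non-control spots called well above background was 59.5% in WT and 63.5% in KO. All 6 T cell markers were well above background on both arrays. Among them Cd4 read 443 in WT and 279 in KO, Cd3e 1800 and 1584, and Cd5 was 3.32-fold lower in KO. Of 38 listed markers of other cell types 34 had a probe and 26 were above background on 1 array or both. Of these 12 were at least 2-fold higher in KO, 1 was lower (Eomes, 2.30-fold), 9 lay between and 4 had bounds under 2-fold. Among all 13787 named genes above background on 1 array or both, 10.6% were at least 2-fold higher and 5.03% lower. The higher ones were Cd8a of CD8 T cells, Klrb1c, Tyrobp and Fcer1g of natural killer cells, Ms4a1 of B cells, Adgre1, Cd14 and Fcgr3 of macrophages, Itgax of dendritic cells, and Cpa3, Mcpt8 and Fcer1a of mast cells and basophils. Adgre1, Fcgr3 and Mcpt8 were above background in KO only, so their values are bounds. The other macrophage markers were not higher. Mpeg1 had a log2 difference of -0.64, Csf1r -0.39 and C1qb 0.002, and Lyz2, above background in WT only, had a bound of -0.92. The median of the 7 macrophage markers was 0.002. Cd8a read 312 in WT and 3213 in KO (10.2-fold). With normexp, the alternative background correction described with the member counts, 6 of the 12 were under 2-fold. Their log2 differences were then 0 for Adgre1, 0.16 for Fcgr3, 0.26 for Ms4a1, 0.29 for Mcpt8, 0.67 for Cd14 and -0.51 for Fcer1a. With normexp after 6 local backgrounds over 200 on the WT array were replaced, Fcgr3 (1.24), Mcpt8 (1.35) and Cd14 (1.53) were past 2-fold. Adgre1 (0.66), Ms4a1 (0.70) and Fcer1a (0.37) were under it. The summed signal in WT and in KO was 2091 and 7490 for natural killer markers, 903 and 1595 for B cell markers, 369 and 689 for macrophage markers, 173 and 791 for dendritic cell markers, and 106.5 and 654 for mast cell and basophil markers. Single genes made up large parts of some of these sums in KO. Fcer1g gave 5087 of the natural killer sum, Itgax 623 of the dendritic cell sum and Cpa3 367 of the mast cell and basophil sum. The summed signal of the 6 T cell markers was 115389 in WT and 74532 in KO, of which Cd5 gave 55133 and 16739. Pax5, Siglech, Ms4a2, S100a8, S100a9, Elane and Alas2 were not well above background on either array. Whether cells of these other types were present, and what part they had in the differences given here, was not tested. In bulk RNA fewer cells of a type and less RNA per cell cannot be told apart.

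With 1 array per group there was no replicate check and no test. Signals are the scanner's processed signals in arbitrary units. A difference is that of KO against WT after scaling to each array's 75th percentile (644 and 650.3), and at least 2-fold, a log2 difference of 1, is a rule of size. Errors after ± are those the scanner software assigned to the signals, carried to the log2 difference. Repeated spots of the same probe gave log2 differences with an SD of 0.31 for mean signals under 100 (36 probes) and 0.054 for brighter ones (110 probes). None of these errors includes the spread between mice or cultures.

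The feedback genes did not all go one way. Of the 9 measured, Dusp1, Dusp10 and Spry1 were at least 2-fold lower in KO, Dusp4 was at least 2-fold higher, and the other 5 (Dusp2, Dusp6, Spry2, Spred1, Spred2) lay between. Among the 12475 named genes well above background on both arrays, 4.51% were at least 2-fold lower, 8.86% at least 2-fold higher and 13.4% at least 2-fold apart in either direction. Counted by probe, 3 of the 10 measured probes of these genes were lower and 2 higher, where 5.16% and 6.75% of all 23747 measured probes were. The median log2 difference was -0.76 over the 9 genes and -0.03 over all 12475. It was -0.29 over the 5 phosphatases and -0.79 over the 4 Sprouty and Spred genes. The last median rests on the dim genes Spred1 (-0.76) and Spred2 (-0.82), and it counts Spry2 by 1 of its 2 probes. The median of the 9 was -1.14 with normexp, another background correction, and -0.28 with normexp after 6 local backgrounds over 200, all on the WT array, were replaced by the array's median.

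**Figure D1:**
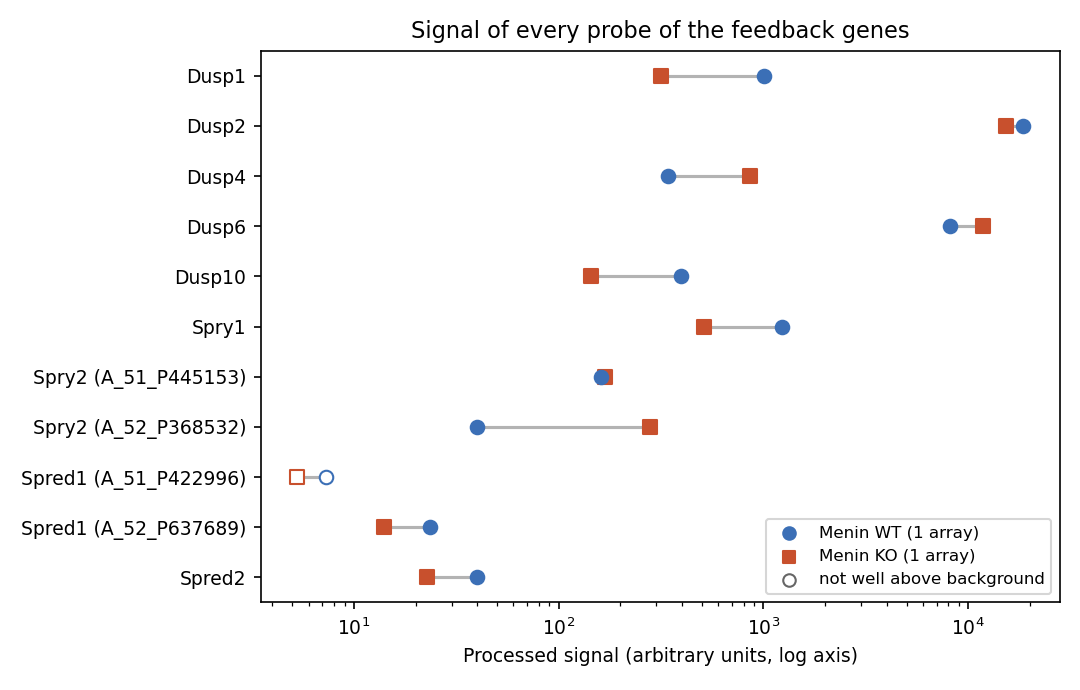
Processed signal (horizontal log axis, arbitrary units) of each of the 11 probes of the feedback genes on the Menin WT array (circles) and the Menin KO array (squares), with open symbols where a probe is not well above background. Dusp1, Dusp10 and Spry1 lie further left in KO, Dusp4 lies further right, and the 2 probes of Spry2 differ from each other.

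Among the nuclear, inducible phosphatases, Dusp1 was lower, Dusp4 was higher and Dusp2 lay within 2-fold. Dusp1, encoding MKP-1, which acts on p38, JNK and ERK, read 1002 in WT and 315 in KO. It was 3.21-fold lower (log2 difference -1.68 ± 0.20), and 178 of the 12475 genes, 1.43%, had a lower value. This was the largest difference among the 9 genes as reported, and it lay between -1.76 and -1.40 under 11 other processing settings. Dusp2, encoding PAC-1, a phosphatase of activated lymphocytes, read 18604 in WT and 15359 in KO. Its log2 difference of -0.29 ± 0.20 (1.22-fold) was 1.42 times the scanner error. With normexp it was 0.0045, or -0.22 with the 6 backgrounds replaced. Dusp4, encoding MKP-2, read 340.2 in WT and 856 in KO. It was 2.49-fold higher (log2 difference 1.32 ± 0.20), a value that 6.19% of all genes exceeded, and it stayed between 1.03 and 1.43 under the other settings.

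Dusp6, encoding the cytoplasmic ERK phosphatase MKP-3, read 8131 in WT and 11794 in KO. Its log2 difference of 0.52 ± 0.20 (1.44-fold) was below the 2-fold limit and lay between 0.45 and 0.78 under the other settings. Dusp10, encoding MKP-5, which prefers JNK and p38 over ERK, differed more. It read 395 in WT and 144 in KO, 2.77-fold lower (log2 difference -1.47 ± 0.21). Of all genes 1.85% had a lower value, and under the other settings it lay between -1.55 and -1.12.

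Spry1, an inhibitor of Ras signalling that is induced in activated T cells, read 1235 in WT and 510 in KO. It was 2.44-fold lower (log2 difference -1.29 ± 0.20), and 2.44% of all genes had a lower value. Under the other settings it lay between -1.37 and -1.14. Spry2, its close relative, could not be given 1 value, since its 2 probes to the same transcript disagreed. The probe that was brighter on average read 160 in WT and 169 in KO, a log2 difference of 0.06 ± 0.21. The other read 40.0 in WT and 278 in KO, which is 6.90-fold higher (2.79 ± 0.23). The probes were 2.72 ± 0.31 apart on the log2 scale, whereas the median gene with several measured probes had a range of 0.14. Of 4414 such genes 11, or 0.249%, had a range at least as wide. The mean of both probes gave Spry2 a log2 difference of 1.42, past the 2-fold limit, while the brighter probe gave -0.36 with normexp and -0.01 with median centring.

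Spred1 and Spred2, which recruit neurofibromin to hold back Ras, were both dim. Spred1 read 23.6 in WT and 14.1 in KO, where the lowest signals called well above background were 14.0 and 10.4. Its log2 difference was -0.76 ± 0.35 (1.69-fold). Its other probe, at 7.26 and 5.28, was above background in neither. Spred2 read 40.0 in WT and 22.8 in KO, a log2 difference of -0.82 ± 0.28 (1.77-fold). Both stayed below 0 under every setting tried, but their size moved with the background correction. Spred1 ranged from -1.19 to -0.28 and Spred2 from -1.28 to -0.40. Among genes with a mean signal under 100, 6.33% were at least 2-fold lower and 14.8% at least 2-fold higher, against 4.08% and 7.44% of brighter genes.

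**Figure D2:**
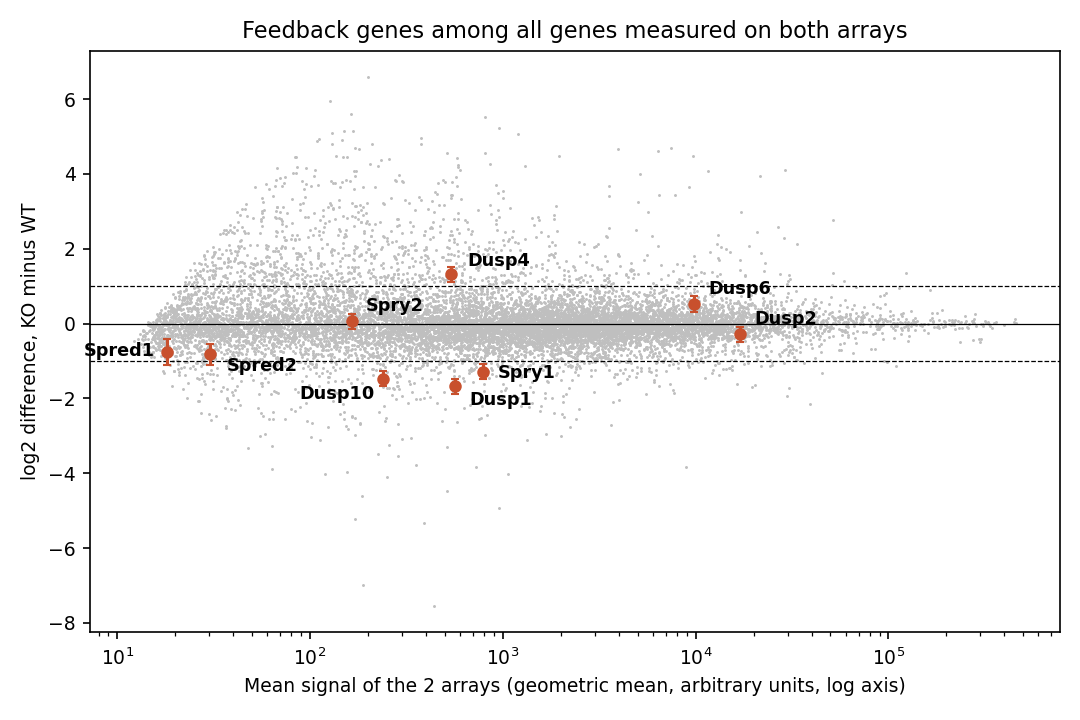
Log2 difference (KO minus WT, vertical) against the geometric mean signal of the 2 arrays (horizontal log axis, arbitrary units) for the 12475 genes measured on both arrays (grey) and the 9 feedback genes (red, with the scanner error as bars), with dashed lines at 2-fold. Dusp1, Dusp10 and Spry1 sit below -1 and Dusp4 sits above 1.

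Of 19 further dual-specificity phosphatases, 14 were above background on 1 array or both. Of these 3 were at least 2-fold higher in KO, none was lower, 10 lay between and 1, Dusp16, had a bound under 2-fold. The background for this and the next lists is all 13787 genes above background on 1 array or both, of which 10.6% were at least 2-fold higher and 5.03% lower. The median log2 difference of the 14 was 0.28, and 10 of the 13 measured on both arrays had positive differences, against 2 of the 5 phosphatases described above. Over all genes measured on both arrays, 5875 of 12475 had positive differences. Of the 10, Dusp11 (0.16), Dusp12 (0.11), Dusp19 (0.14) and Dusp22 (0.03) were under their scanner errors of 0.20. With normexp Dusp18 was -0.83 and Dusp23 -0.59, and with normexp after the 6 backgrounds were replaced they were 0.15 and 0.08. Dusp3, encoding the small phosphatase VHR, which acts on ERK and JNK, read 16.1 in WT and 217 in KO (13.3-fold, log2 difference 3.74 ± 0.34). Dusp9, encoding the ERK phosphatase MKP-4, read 48.2 and 324 (6.67-fold, 2.74 ± 0.22), while its other probe gave 0.74. Dusp14, encoding MKP-6, a phosphatase that restrains T cell receptor signalling, read 166 and 719 (4.30-fold, 2.10 ± 0.21), and its other probe gave 1.95. The log2 differences of Dusp3, Dusp9 and Dusp14 were 0.59, 0.88 and 1.35 with normexp, and 1.64, 1.68 and 1.73 with the 6 backgrounds replaced. The brightest genes between the limits were Dusp11, an RNA phosphatase (10681 in WT, 12081 in KO, log2 difference 0.16), and Dusp7, an ERK phosphatase of the same class as Dusp6 (7288, 9943, 0.44). Dusp8, Dusp15, Dusp21, Dusp26 and Dusp27 were not well above background on either array.

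**Figure D3:**
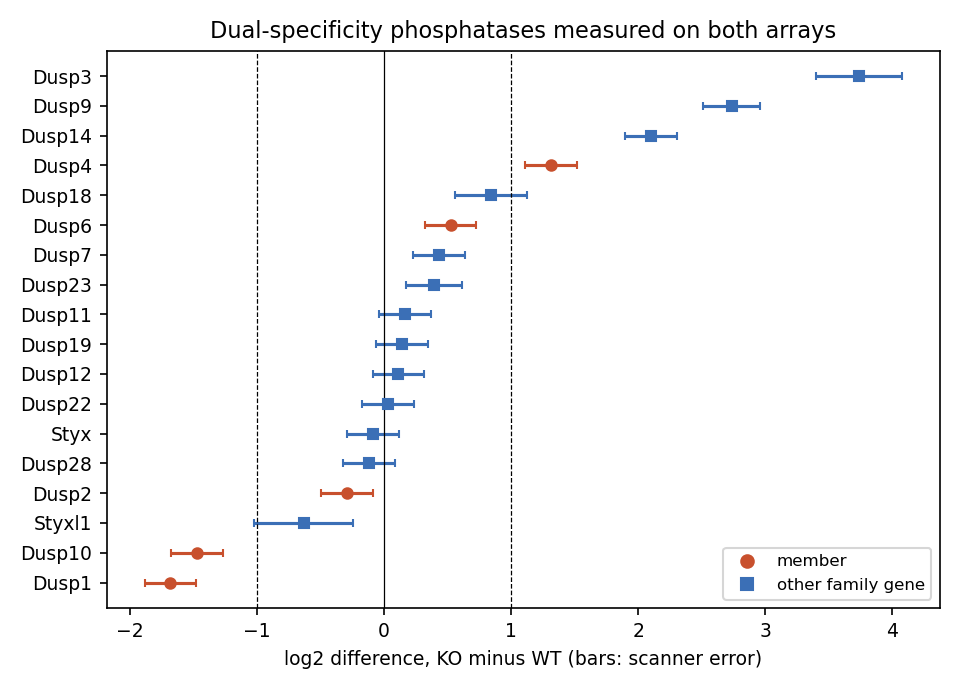
Log2 difference (KO minus WT) of the dual-specificity phosphatase genes measured on both arrays, in order, with circles for the 5 phosphatases described first, squares for the 13 other genes of the family and bars for the scanner error. Dusp1 and Dusp10 are at the low end below -1, and Dusp3, Dusp9, Dusp14 and Dusp4 are above 1.

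Of the other Sprouty family genes, Spry3 and Spry4 were not well above background on either array. Spred3 was well above background in KO only (4.28 in WT, 28.4 in KO), at least 2-fold higher, and this bound was under 2-fold in 6 of the other settings. Among the Cbl family and other Sprouty binding partners, 5 of 6 genes lay between the limits, none was past them, and Cav1 had a bound of 0.64, with a median of -0.36. The brightest were the adaptor genes Sh3kbp1 (9797 in WT, 8353 in KO, log2 difference -0.24) and Cd2ap (3856, 2267, -0.78).

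In the kinase chain on which the feedback acts, none of 16 genes of the Raf, MEK and ERK list above background was at least 2-fold apart, and their median was 0.02. Mapk3, encoding ERK1, read 3790 in WT and 3929 in KO (log2 difference 0.04). The MEK genes Map2k1 and Map2k2 had log2 differences of -0.12 and 0.14. The brightest genes of the list were Pebp1, encoding an inhibitor of Raf (19689, 27844, 0.49), and the scaffold gene Lamtor3 (0.04).

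Upstream, of 21 genes of Ras activation above background 3 were at least 2-fold higher, 2 were lower and the remaining 16 lay between, beside 10.6% higher and 5.03% lower among all genes. Their median was 0.01, and with normexp none was lower. The higher ones were Dab2ip, a GTPase-activating protein gene (418 in WT, 1898 in KO, 4.50-fold), the Ras relative Rras (1321, 3552, 2.66-fold) and Nf1. Nf1, encoding neurofibromin, read 73.4 and 154 (2.08-fold), but its other probe gave a log2 difference of 0.62, and with normexp it was -0.14. Rasgrp1, which activates Ras downstream of the T cell receptor, read 10533 and 4966 (2.14-fold lower), and its other probe gave -0.48. It was under 2-fold with normexp (-0.83) and as a mean over probes (-0.79). Rasa1, encoding a GTPase-activating protein, read 783 and 394 (2.01-fold lower), and it was under 2-fold in 5 of the other settings. The brightest genes between the limits were Ptpn11 (-0.34), encoding SHP-2, and Lztr1 (0.01).

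In the JNK and p38 cascades 2 of 26 genes above background were at least 2-fold higher, none was lower and the remaining 24 lay between, a share of higher genes near the 10.6% of all genes. Their median was -0.10. Mapk8, encoding JNK1, was lower past the limit with normexp (-1.10) and as a mean over probes (-1.06), but -0.53 with the 6 backgrounds replaced. Map3k2 was past the limit as a mean over probes (-1.08), though its 2 probes measured on both arrays gave -0.11 and 0.18. Both means take in probes above background on 1 array only, whose values are bounds. Mapk12, encoding p38 gamma, read 420 in WT and 1344 in KO (3.17-fold), and its other probe gave a log2 difference of 1.75. Gadd45g, encoding an activator of the p38 and JNK pathways in T cells, read 19351 and 47804 (2.45-fold). Mapk14, encoding p38 alpha, had a log2 difference of -0.41. The brightest between the limits were the scaffold gene Mapk8ip3 (0.19) and the kinase gene Mapkapk2 (0.24). Of 10 phosphatases of other families that act on MAP kinases, Ptpn5 was at least 2-fold higher (84.2, 301, 3.54-fold) and the other 9 lay between, with a median of -0.05. The log2 difference of Ptpn5 was 0.59 with normexp and 1.19 with the 6 backgrounds replaced. The brightest of the 9 were Ptpn2 (-0.01) and Ptpn7 (0.08), a phosphatase of lymphocytes that acts on ERK.

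Of 23 immediate early and other ERK-responsive genes above background, 10 were at least 2-fold higher, 2 were lower, 10 lay between and 1, Egr3, had a bound of 0. Their median was 0.38. Among all 13787 genes 10.6% were higher and 5.03% lower. Phlda1 (595 in WT, 2867 in KO, 4.78-fold), Ier3 (570, 2540, 4.42-fold) and Errfi1, a feedback inhibitor of the EGF receptor (485, 2101, 4.30-fold), were higher. So were the AP-1 gene Junb (39283, 87985, 2.22-fold), the ETS factor gene Elk3 (5507, 12378, 2.23-fold) and the pseudokinase gene Trib1 (340, 777, 2.26-fold), the last with a log2 difference of 0.87 with normexp and 1.05 once the 6 backgrounds were replaced. The other 4 were dimmer and fell under 2-fold with normexp. They were Jun (148, 356, 2.39-fold), Fosl1 (35.7, 108, 3.01-fold), Etv4 (58.8, 207, 3.49-fold) and Etv5 (at least 3.89-fold). With normexp their log2 differences were 0.54 for Jun, -0.25 for Fosl1, 0.27 for Etv4 and 0 for Etv5. With the 6 backgrounds replaced they were 0.96, 0.63, 0.98 and 0.35. The lower genes were Etv1 (44.0, 15.9, 2.79-fold) and Elk4 (87.5, 35.5, 2.49-fold), at -0.62 and -0.78 once the 6 backgrounds were replaced. Egr1 (207, 129, log2 difference -0.70), Fos (33.7, 30.6, -0.15), Myc (8883, 8670, -0.05) and Ier5 (8324, 10906, 0.38) lay between the limits.

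**Figure D4:**
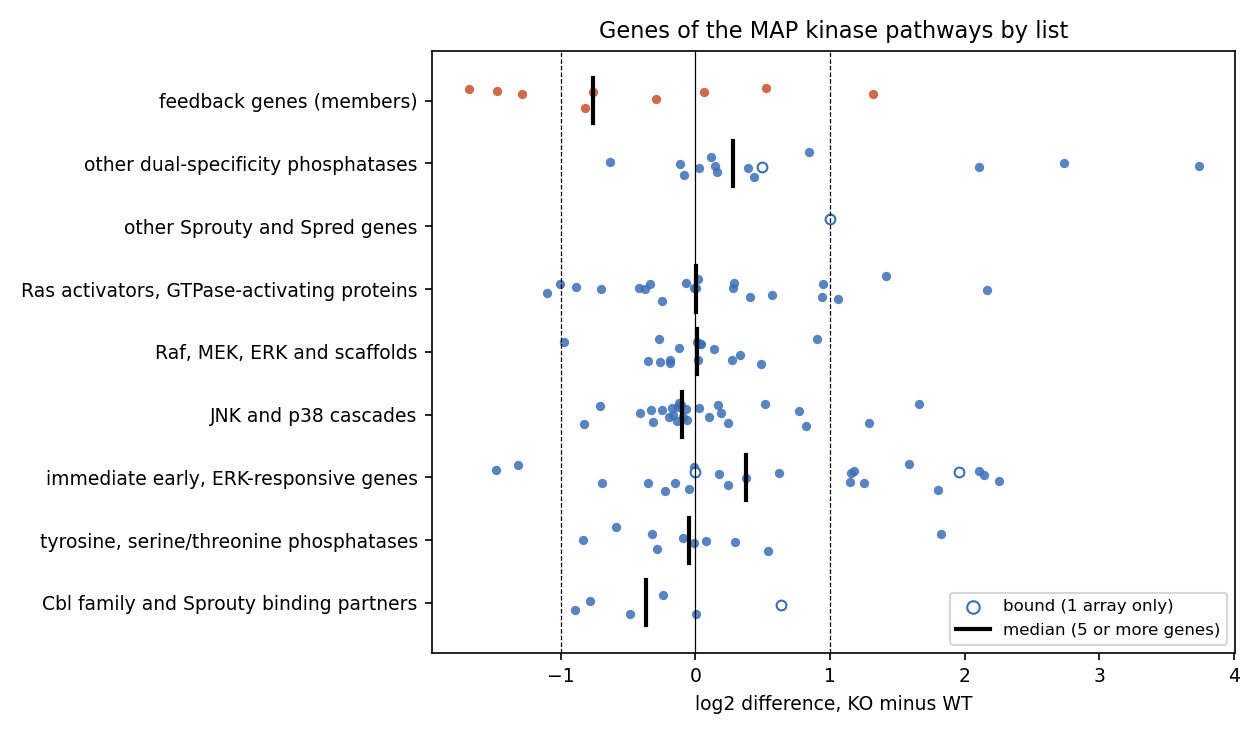
Log2 difference (KO minus WT) of the 9 feedback genes (red) and of the genes of the pathway lists (blue), 1 point a gene, with open points for bounds, black bars for the medians of lists of 5 or more genes and dashed lines at 2-fold. The feedback genes have a median of -0.76, the Raf, MEK and ERK list lies within the dashed lines, and 10 immediate early genes lie at or beyond the upper one.

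Under the 11 other settings the 4 feedback genes past the 2-fold limit (Dusp1, Dusp4, Dusp10, Spry1) stayed past it in the same direction. Of the other 5, Spred1 and Spred2 were past it only with normexp as given, Spry2 only as a mean over its probes, and Dusp2 and Dusp6 in none.

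**Figure D5:**
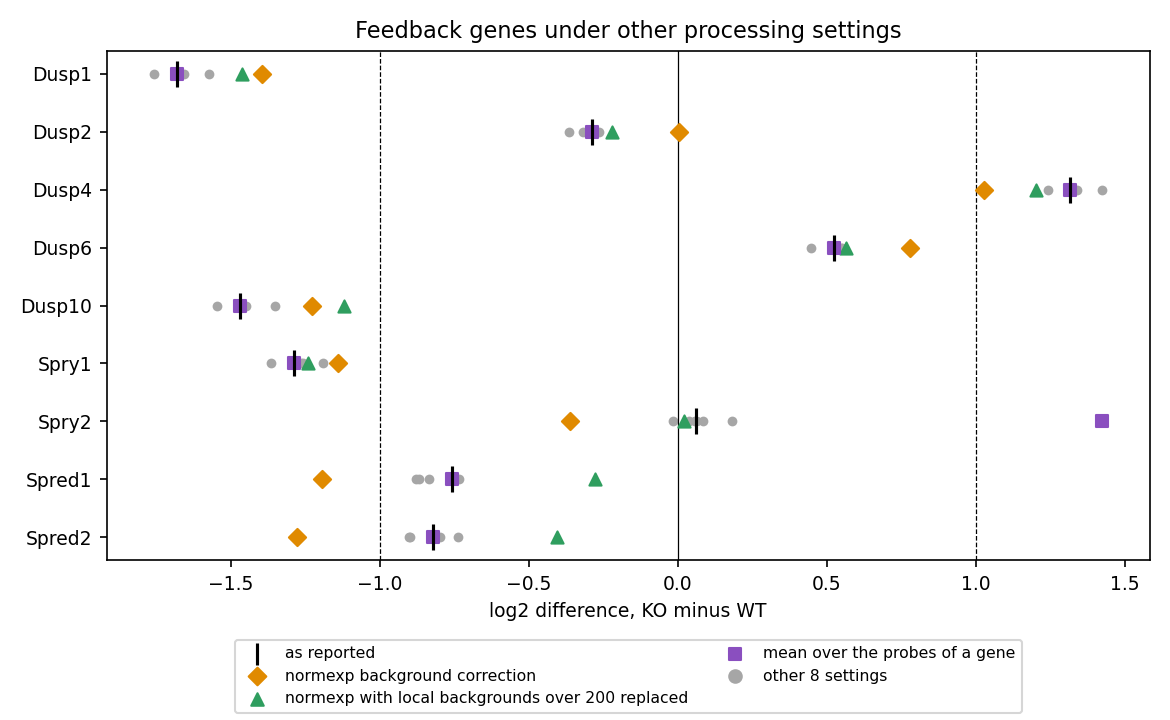
Log2 difference (KO minus WT) of each feedback gene as reported (black bars) and under 11 other processing settings (coloured symbols for 3 of them, grey points for the other 8), with dashed lines at 2-fold. Dusp1, Dusp4, Dusp10 and Spry1 stay outside the dashed lines in all of these settings, while Spry2, Spred1 and Spred2 spread widely.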

How the data were processed

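Signals came from 2 scanner files, 1 per array, read with Feature Extraction 10.7.3.1 per the file headers (10.7 per the submitters' processing notes). The deposited intensity is the processed signal of each spot, background-subtracted and detrended on a linear scale, per the file headers. Its error, the median spot and local background intensities, and the quality flags (0 or 1) came from the same deposited files. The authors' deposited table of log2 values matched the log2 processed signal less 1 constant for each array (100% of probes printed once within 0.01), which settles scale, centring and direction. The WT column has a median of -3.97 and the KO column one of -3.90.

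Log2 signals minus each array's 75th percentile over non-control spots without outlier flags were averaged over the spots of a probe. Of 41174 probes 27050 had 1 symbol in the RefSeq table of GRCm38.p6, used for names, and 14124 had none. A gene took its brightest probe above background. A gene detected in only 1 array has a bound: its detected level less the dim array's detection limit (the lowest level well above background), or less the dim value if that is higher. Precision is limited by the number of arrays.

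The members, the pathway and marker lists, and the rule for named genes were chosen with earlier results of these data known. The rule was all member probes, list genes at least 2-fold apart and the 2 brightest between, the other Sprouty and Spred genes, markers at least 2-fold higher on either array, Men1 and Bach2; other genes, neighbours included, were named after their values were seen. Alternatives were normexp with an offset of 50 (limma 3.58.1, R 4.3.3) on median signals, as given and with local backgrounds over 200 replaced; quantile, median and loess scaling (statsmodels 0.14.6); the authors' values; the mean over probes; 2 other filters on dim probes; outlier flags kept; a common detection limit; and size rules of 1.5-fold and 4-fold. The steps were tested on simulated data, a copy of the WT array with spot noise and known shifts. Only genes with WT signals of 100 or more were shifted, and no gene was above background in KO only, so such bounds were not tested.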

Additional observations from a re-analysis of the deposited data

How the results depend on the processing

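No paired analysis was possible because each group has 1 array. Of 99 alternative values of the 9 feedback genes, 86 moved by no more than 0.16 and 13 by more, and none past the 2-fold limit changed sign. The limit of 0.16 is the pooled SD between spots of all 146 repeated probes (bright and dim). Many of the 86 could not have moved further. All 9 genes were measured on both arrays, so the filters on dim probes and the common detection limit left them unchanged. Median scaling, the authors' values and kept outlier flags shifted all 9 nearly alike, by less than 0.16. Apart from Spry2 as a mean over probes, the larger moves came with normexp, as given or with backgrounds replaced. The feedback genes at least 2-fold higher numbered 2 in place of 1 as a mean over probes, and 0 by the 4-fold rule. Those lower numbered 5 in place of 3 with normexp and by the 1.5-fold rule, and 0 by the 4-fold rule. Their median was -1.14 with normexp and -0.28 with backgrounds replaced. Over all named genes 1456 were higher and 694 lower. The counts were 601 and 1682 with normexp, 758 and 369 with backgrounds replaced, 2335 and 1712 by the 1.5-fold rule, and 542 and 158 by the 4-fold rule, and 1113 were lower with no filter on dim probes. The higher share of genes 2-fold apart was 67.7% as reported, 26.3% with normexp and 67.3% with backgrounds replaced. Of the other phosphatases, 3 higher and 0 lower as reported, 1 was higher and 1 lower with normexp, 6 were higher with no filter and 1 was lower by the 1.5-fold rule, and their median was 0.11 with backgrounds replaced. Of the immediate early genes, 10 higher and 2 lower as reported, 5 were higher and 5 lower with normexp, 6 and 0 with backgrounds replaced, and 3 and 0 by the 4-fold rule. Their median was 0.21 with normexp, and that of phosphatases of other families was 0.20. The cause of these moves was not tested. Of 156 counts for the remaining lists 119 stayed within 1.5 times, counts of 0 that stayed 0 included. Signals close to the lowest ones well above background, 14.0 in WT and 10.4 in KO, limit what can be said of Spred1, Spred2 and Spred3. The same limit applies to the sizes given for Dusp3 (16.1 in WT), Hlx (15.8 in WT), Etv1 (15.9 in KO) and the bound of Etv5 (13.2 in WT).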

Other observations

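The protein-coding genes next to the feedback genes in the RefSeq order (GRCm38.p6) were read as well. Of 20 neighbours, those of Dusp5 included, 15 were above background on 1 array or both, of which 1 was at least 2-fold higher in KO, 1 was lower and 13 lay between. These shares are near those of all 13787 genes above background on 1 array or both, 10.6% higher and 5.03% lower. The lower one was Neurl1b, a ubiquitin ligase gene beside Dusp1 on chromosome 17, which read 1859 in WT and 484 in KO (3.88-fold lower). Dusp1 itself was 3.21-fold lower. The higher one was Hlx, a homeobox factor gene beside Dusp10 on chromosome 1, which read 15.8 in WT and 286 in KO (17.9-fold higher). The log2 difference of Hlx was 4.16, or 0.91 with normexp and 1.96 with backgrounds replaced, while that of Dusp10 was -1.47. Spata5, beside Spry1 on chromosome 3, lay between the limits at -0.94 (8861 in WT, 4646 in KO). Saraf, beside Dusp4, also lay between them, at -0.72 where Dusp4 was at 1.32.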
